A study of Rattus norvegicus with 17 samples.

Results

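The genes described here are Ccl2 (ENSRNOG00000007159), Il1b (ENSRNOG00000004649), Il6 (ENSRNOG00000010278) and Socs3 (ENSRNOG00000002946), which encode a chemokine, a pair of inflammatory cytokines and a feedback regulator of cytokine signaling. They are 4 of the 32494 Ensembl genes in the deposited count table. All 4 passed the filter on low counts that left 15460 genes for testing.

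The RNA came from the spinal cords of 17 young-adult female Sprague-Dawley rats, 1 library per rat. Spinal cord injury (SCI) was made by contusing the thoracic cord with moderate force, and a stimulating electrode lay in the nucleus raphe magnus (NRM), a midline brainstem nucleus that sends serotonergic fibers to the cord. Stimulation lasted 2 h and was given 3 days after injury, immediately before the cord was removed. Cervical, thoracic and lumbar blocks with the pia-arachnoid were combined, so that each count mixes the lesion with distant cord, and fewer cells of a type cannot be told apart from less RNA per cell. Group A held 4 rats with sham injury and sham stimulation, group B 3 rats with SCI and sham stimulation, group C 3 rats with SCI and stimulation, group D 2 rats with SCI, stimulation and pimozide at 1 mg/kg, and group E 5 rats with sham injury and stimulation. Pimozide blocks dopamine and serotonin receptors. An electrode was placed in sham-stimulated rats too, under isoflurane, and the first surgery was done under ketamine and xylazine, with buprenorphine and gentamycin given daily afterwards. Some of the uninjured rats had a laminectomy, and the labels do not say which. The treatment label of the group E rats calls them unstimulated, whereas their titles carry the letter of the stimulated sham group, and they were analyzed as stimulated. Groups A and E are called intact and groups B, C and D injured.

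Injured tissue and the immune cells that enter it release interleukin-1β (Il1b) and interleukin-6 (Il6), which drive further cytokine production, the former mainly through NF-kB and the latter through STAT3. Ccl2 is the chemokine that draws monocytes into damaged tissue, and glia, endothelium and macrophages make it. Socs3 is induced by STAT3 and binds the shared receptor chain of Il6 and its relatives together with JAK kinases, so that it ends the signal that raised it.

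The deposited counts summed to 9852873 to 14137717 per rat, and levels are given as CPM, the count of a gene per 1000000 counts of its library, with library sizes corrected by TMM factors. The check of tissue and cell types was limited, because 99 identifiers could be paired with a symbol. None of them was on the short marker lists used here for neurons, glia, endothelium, fibroblasts, macrophages or T cells. Of 10 neutrophil markers 7 were matched (S100a8, S100a9, Mpo, Ngp, Camp, Elane and Fcnb), and of 8 erythroid markers 8 were (Alas2, Hbb, Hba-a1, Hemgn, Rhag, Slc4a1, Klf1 and Ahsp). The symbols came from the study's list of genes flagged for stimulation or pimozide in these rats. All 7 neutrophil and 8 erythroid markers are among the genes it flagged as higher in group C than in group B. Transcript lengths were not used, so the level of one gene was not compared with that of another.

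The RefSeq tables used here held promoter windows of 300 bases, from 250 before to 50 after the start site, for Il1b, Il6 and Socs3 in build GRCr8. The windows of Il1b at chr3:137036532-137036831 and of Il6 at chr4:5894526-5894825, both on the minus strand, are shown because NF-kB, named above, acts through promoter elements of cytokine genes. Capitals mark exact matches, on either strand, to a CRE (TGACGTCA), a C/EBP-type element (TTGCNNAA), a NF-kB element or a TATA box (TATAAA), and no 2 matches overlapped.
Il1b: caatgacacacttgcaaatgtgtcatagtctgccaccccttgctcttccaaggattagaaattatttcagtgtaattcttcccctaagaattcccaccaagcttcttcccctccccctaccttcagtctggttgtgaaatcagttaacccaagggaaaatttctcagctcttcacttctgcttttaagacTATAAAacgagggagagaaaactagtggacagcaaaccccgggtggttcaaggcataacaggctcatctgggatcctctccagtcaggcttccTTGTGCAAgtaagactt
Il6: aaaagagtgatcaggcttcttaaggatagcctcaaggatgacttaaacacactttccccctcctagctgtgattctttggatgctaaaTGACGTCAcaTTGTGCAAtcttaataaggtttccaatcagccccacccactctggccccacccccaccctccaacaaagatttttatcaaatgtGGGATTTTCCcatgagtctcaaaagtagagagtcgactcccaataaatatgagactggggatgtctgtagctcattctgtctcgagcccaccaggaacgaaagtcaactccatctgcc
The Il6 window held a CRE at positions -162 to -155 from the start site, a C/EBP-type match at -152 to -145 and the NF-kB match GGGATTTTCC at -68 to -59. In the Il1b window the TATA box lay at -60 to -55 and a C/EBP-type match at 34 to 41, after the start site. The Il1b window held no NF-kB match and no CRE, and the Il6 window no TATA box. No AP-1 (TGANTCA) or STAT (TTCNNNGAA) match was in either window. Over all 33469 rat promoter windows of this length, 1.83% held a CRE, 10.6% a C/EBP-type match, 7.51% an NF-kB match, 14.2% a TATA box, 7.33% an AP-1 match and 8.87% a STAT match. The Socs3 window lay 1207 bases inside the gene from its outer start and is not shown. A match describes the letters of the window only.

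Socs3, the feedback regulator, was the member with the clearest separation of injured from intact rats. In group A its level was 2.29, 2.59, 3.42 and 5.53 CPM, and in the intact stimulated rats of group E it was 1.47, 1.70, 2.10, 2.73 and 10.04 CPM. In group B it was 11.7, 13.3 and 15.8 CPM, in group C 11.7, 14.8 and 32.9 CPM, and in group D 9.48 and 26.4 CPM. Every rat of groups B and C lay above every intact rat, the highest of which was rat 87 of group E at 10.04 CPM. Rat 75 of group D, at 9.48 CPM, lay below rat 87 and above the other 8 intact rats. The group means were 3.46 ± 1.46 (SD, n = 4) in A, 3.61 ± 3.63 (n = 5) in E, 13.6 ± 2.05 (n = 3) in B and 19.8 ± 11.5 (n = 3) in C, with 18.0 for the 2 rats of D. Group B was the most even of the groups with over 2 rats, with an SD of 0.150 of its mean.

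Ccl2, the monocyte chemokine, was also high in the injured cord, but the intact rats spread more widely. Group A had 1.04, 2.51, 6.36 and 6.71 CPM, and group E had 0.680, 0.910, 1.23, 2.97 and 10.1 CPM. Group B had 7.60, 8.09 and 15.1 CPM, group C 9.55, 10.1 and 26.5 CPM, and group D 6.13 and 18.7 CPM. Groups B and C lay wholly above group A. The intact rat 87, at 10.1 CPM, lay within the range of the injured rats and above 5 of the 8 injured rats. The means were 4.16 ± 2.82 (n = 4) in A, 3.18 ± 3.99 (n = 5) in E, 10.3 ± 4.22 (n = 3) in B and 15.4 ± 9.63 (n = 3) in C, with 12.4 for the 2 rats of D. The highest intact rat had 14.9 times the level of the lowest, against 4.32 times among the 8 injured rats.

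Il1b, the inflammasome-processed cytokine, was measured on few reads, 2 to 51 per rat. Group A had 0.157, 0.417, 0.888 and 1.14 CPM, and group E had 0.340, 0.350, 0.547, 0.560 and 4.79 CPM. Group B had 0.578, 1.06 and 1.19 CPM, group C 0.829, 0.955 and 2.35 CPM, and group D 0.927 and 1.18 CPM. The injured and intact ranges overlapped, and the highest of all 17 rats was intact: rat 87 of group E, whose 51 counts have an exact Poisson interval (95%) of 38.0 to 67.1, which covers counting error only. The other 4 rats of group E had 4 to 8 counts. The group means were 0.650 ± 0.445 (n = 4) in A, 1.32 ± 1.94 (n = 5) in E, 0.943 ± 0.323 (n = 3) in B and 1.38 ± 0.842 (n = 3) in C, with 1.05 for the 2 rats of D.

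Il6, the cytokine whose receptor Socs3 restrains, rested on the fewest reads, 1 to 26 per rat. Group A had 0.285, 0.314, 0.521 and 1.18 CPM, and group E had 0.0700, 0.0875, 0.156, 0.255 and 1.03 CPM. Group B had 0.0962, 0.770 and 1.10 CPM, group C 0.276, 1.04 and 2.26 CPM, and group D 0.642 and 0.727 CPM. Injured and intact rats overlapped throughout: rat 94 of group B, with 1 count, was at the level of the lowest intact rats, and the intact rats 84 and 87 stood at the level of the injured. The 26 counts of rat 89, the highest, have an exact Poisson interval (95%) of 16.98 to 38.1. The group means were 0.576 ± 0.419 (n = 4) in A, 0.320 ± 0.405 (n = 5) in E, 0.656 ± 0.512 (n = 3) in B and 1.19 ± 1.00 (n = 3) in C, with 0.684 for the 2 rats of D.

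**Figure D1:**
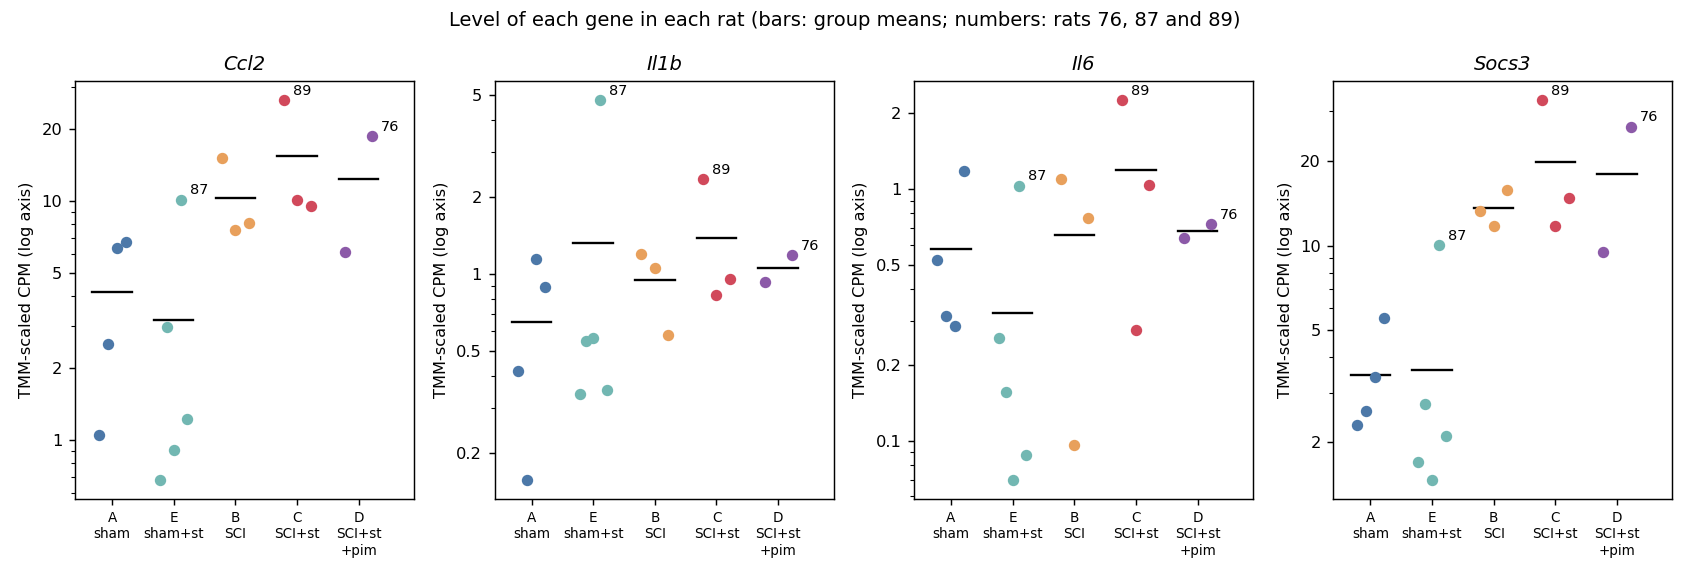
Level of each gene in each of the 17 rats, in TMM-scaled CPM on a log axis that differs between panels, by group; bars are group means and rats 76, 87 and 89 are numbered. For Socs3 every rat of groups B and C lies above rat 87, the highest intact rat at 10.04 CPM, whereas for Il1b rat 87, at 4.79 CPM, is above every injured rat.

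By mean level the groups ranked C, D, B, A, E for Ccl2 and for Il6, C, D, B, E, A for Socs3 and C, E, D, B, A for Il1b. Of the 16 steps between neighbors in these orders, the step of Socs3 from B down to E was the one that passed the threshold, where log2(FC) was 1.95 (SE 0.523, adjusted p = 0.015). The step of Ccl2 from B down to A, 1.31 (SE 0.731), separated groups that did not overlap but had an adjusted p of 0.25. In the remaining 14 steps the ranges of the rats overlapped, with adjusted p-values of 0.80 or above for all but the lowest step of Il1b, which had 0.72.

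The question of contrast ±SCI(0), which sets group B over group A, is what injury alone changed. Expression was compared with edgeR's quasi-likelihood test across all 17 rats, with the log2 of the fold change, log2(FC), and the false discovery rate (FDR) over the 15460 genes as adjusted p. Genes with an FDR under 0.05 whose log2(FC) was above 1, or below -1, were called. In ±SCI(0) Socs3 rose, with a log2(FC) of 1.98 (SE 0.565, 95% interval 0.79 to 3.17, adjusted p = 0.029). Ccl2 had a log2(FC) of 1.31 (SE 0.731, -0.23 to 2.85, adjusted p = 0.25), Il1b of 0.56 (SE 0.911, -1.36 to 2.48, adjusted p = 0.72) and Il6 of 0.22 (SE 0.830, -1.53 to 1.97, adjusted p = 0.89). Thus 1 of 4 members was called higher, where 5.09% of all genes tested were. For Ccl2 and Socs3 the groups did not overlap, every B rat above every A rat, as for 17.4% of all genes. The call of Socs3 was lost when any one of rats 70, 82 and 83 of group A or rats 91 and 95 of group B was left out, with an adjusted p of 0.068 to 0.093, while its log2(FC) stayed at 1.84 to 2.00. It was also lost with a term for the rats' number series, 69 to 76 and 82 to 95 (log2(FC) 1.79, adjusted p = 0.060), where 0 of 4 members and 4.57% of all genes were called higher by the quasi-likelihood test. With the stated methods of the study Ccl2 passed too, at 1.38 and an adjusted p of 0.024, so that 2 of 4 were called, against 4.45% of all genes.

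Contrast ±st/SCI(0) sets injured and stimulated rats (C) over the same group A. Socs3 rose by a log2(FC) of 2.52 (SE 0.556, 95% interval 1.35 to 3.70, adjusted p = 0.0041). Ccl2 had a log2(FC) of 1.89 (SE 0.716, 0.38 to 3.40) and missed the threshold at an adjusted p of 0.067. The differences of Il1b, 1.10 (SE 0.857, adjusted p = 0.37), and of Il6, 1.07 (SE 0.754, adjusted p = 0.31), had intervals that held 0. Of the members 1 of 4 was called, against 6.7% of all genes, and Ccl2 and Socs3 did not overlap between the groups, as 16.4% of all genes did not. Ccl2 passed with an adjusted p of 0.043 without a filter on low counts and of 0.044 when groups A and C were fitted alone. It also passed without rat 87 (0.026) or rat 93 (0.041). With the exact test and total-count scaling that the methods state, run without a filter since they name none, it passed too (0.0059). With no filter, with these groups alone and with the stated methods 2 of 4 members were called, against 4.55%, 6.14% and 5.1% of all genes. Without rat 89 the log2(FC) of Ccl2 was 1.25 with an adjusted p of 0.36, and the other alternatives left it above the threshold as well, with an adjusted p of 0.055 to 0.15. Without rat 89 the log2(FC) was 0.48 for Il1b (adjusted p = 0.82) and 0.24 for Il6 (adjusted p = 0.90).

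Among stimulated rats, contrast ±SCI(st) sets group C over group E. Here Ccl2 rose by 2.31 on the log2 scale (SE 0.681, 95% interval 0.87 to 3.75, adjusted p = 0.018) and Socs3 by 2.49 (SE 0.512, 1.41 to 3.57, adjusted p = 0.0020). Il6 had a log2(FC) of 1.96 (SE 0.762, 0.35 to 3.57) with an adjusted p of 0.064, and Il1b of 0.12 (SE 0.747, -1.46 to 1.70) with an adjusted p of 0.92. This was 2 of 4 members, against 7.34% of all genes called higher. Group C overlapped with group E in 3 of the members, through rat 87 alone. For Socs3 it did not, so that 1 of 4 members had every C rat above every E rat, against 15.2% of all genes. The call of Ccl2 was lost without rat 89, at a log2(FC) of 1.67 and an adjusted p of 0.15. Il6 passed without rat 90, at 2.41 and an adjusted p of 0.031, and had 1.12 without rat 89 with an adjusted p of 0.44. The 3 contrasts share groups A or C, so they are not separate tests of injury.

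Averaged over stimulation, groups B and C were set over groups A and E. Socs3 was 4.71 times higher in the injured cord, a log2(FC) of 2.24 (SE 0.382, 95% interval 1.43 to 3.04, adjusted p = 0.00026). Ccl2 was 3.51 times higher, a log2(FC) of 1.81 (SE 0.500, 0.75 to 2.87, adjusted p = 0.0092). Il6 had a log2(FC) of 1.09 (SE 0.568, -0.11 to 2.29, adjusted p = 0.14) and Il1b of 0.34 (SE 0.588, -0.90 to 1.58, adjusted p = 0.67), neither of which passed. In all 2 of 4 members were called higher, against 6.68% of the genes tested, and the median log2(FC) of those genes was -0.02. Socs3 alone of the members had every rat of B and C above every rat of A and E, as 9.18% of all genes had. All rats of B and C carry numbers from 82 to 95, as do the intact rats except 69 and 70. With a term for this number series the log2(FC) was 1.53 for Ccl2 (adjusted p = 0.019) and 2.07 for Socs3 (adjusted p = 0.0011).

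The same question was put to the rats one gene at a time, with 2-sided exact permutation tests of the mean log2(CPM + 0.1) of 6 rats of B and C against 9 of A and E. The difference was 2.36 for Socs3, with an exact permutation p of 0.0004, the smallest that this design can give. It was 2.20 for Ccl2 (exact permutation p = 0.0028), 0.87 for Il6 (exact permutation p = 0.17) and 0.65 for Il1b (exact permutation p = 0.26). With log2(CPM + 1) it was 0.38 for Il6 (exact permutation p = 0.15) and 0.25 for Il1b (exact permutation p = 0.46). With each rat left out, the difference of Il6 ran from 0.55 to 1.26. All 6 injured rats lay above the median of the intact rats for Socs3, Ccl2 and Il1b, and 4 of 6 did for Il6. For Ccl2 2 of the 6 lay above every intact rat, for Il6 1 and for Il1b 0.

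**Figure D2:**
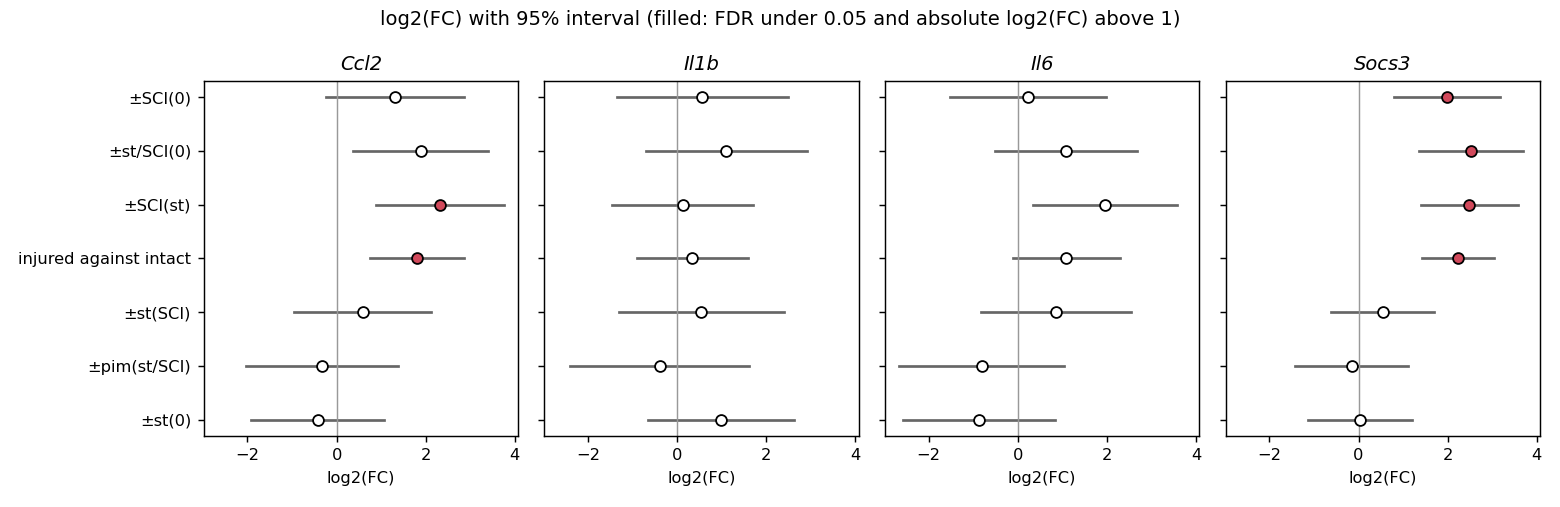
The log2(FC) of each gene in 7 comparisons (x axis) with its 95% interval (line); filled points were called. Socs3 is filled in all 4 comparisons of injured with intact rats and Ccl2 in 2, while all points for stimulation and pimozide are open and their intervals cross 0.

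Whether stimulation changed the genes in injured rats is the question of contrast ±st(SCI), C over B. The differences were all positive with intervals that held 0, with a log2(FC) of 0.58 for Ccl2 (95% interval -0.96 to 2.12), 0.54 for Il1b (-1.31 to 2.40), 0.85 for Il6 (-0.83 to 2.54) and 0.54 for Socs3 (-0.61 to 1.69), each with an adjusted p of 1. The lowest rats of group C were level with group B, and the excess lay in rat 89. Without rat 89 the log2(FC) was -0.07 for Ccl2, -0.08 for Il1b, 0.012 for Il6 and -0.04 for Socs3. For Il6 it was 1.45 without rat 91 of group B and 1.31 without rat 90 of group C, with an adjusted p of 0.92 and 0.85. By edgeR's quasi-likelihood test 0 of 4 members were called, as were 0% of all genes. At an unadjusted p under 0.05 the same test had 476 genes and 0 members, and with all rats edgeR's exact test, with the filter, and DESeq2, with its own filtering, called 0 genes. The exact test with the total-count scaling that the methods state, run without a filter on groups B and C alone, called 33 genes (0.151%). The quasi-likelihood fit of B and C alone called 3 (0.0205%), and 0 members were called in either.

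In intact rats, contrast ±st(0) sets group E over group A. The log2(FC) was -0.42 for Ccl2 (-1.91 to 1.07, adjusted p = 0.91), 0.98 for Il1b (-0.66 to 2.63, adjusted p = 0.76), -0.88 for Il6 (-2.59 to 0.82, adjusted p = 0.80) and 0.03 for Socs3 (-1.14 to 1.20, adjusted p = 0.99). The groups overlapped for every member, and the positive value of Il1b turned on rat 87. Without rat 87 all 4 values were negative, at -1.51 for Ccl2, -0.48 for Il1b, -1.93 for Il6 and -0.78 for Socs3, with adjusted p-values of 0.70 to 0.90. Without rat 84 of group A the log2(FC) was -0.094 for Ccl2 and -0.27 for Il6, each with an adjusted p of 0.99. With all rats the quasi-likelihood test called 0 members and 0% of all genes, with 1297 genes and 0 members at an unadjusted p under 0.05, and the exact test and DESeq2 called 15 genes each and 0 members. The quasi-likelihood test called 49 genes (0.317%) and 0 members without rat 82 of group A, and the stated methods called 25 genes (0.109%) and 0 members. The interaction, the change with stimulation in injured rats less that in intact rats, was 1.00 for Ccl2 (SE 1.02), -0.44 for Il1b (SE 1.18), 1.73 for Il6 (SE 1.14) and 0.51 for Socs3 (SE 0.777), each with an adjusted p of 1. Leaving out rat 89 or rat 87 moved the interaction to 0.36 or 2.09 for Ccl2 and to 0.89 or 2.79 for Il6. By the quasi-likelihood test 0 members and 0% of all genes had a called interaction, with 635 genes and 0 members at an unadjusted p under 0.05, and DESeq2 called 0.

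Contrast ±pim(st/SCI) sets the 2 pimozide-treated rats of group D over group C. For Ccl2 rat 75, at 6.13 CPM, lay below all C rats and rat 76, at 18.7 CPM, between the highest C rat and the others, and Socs3 had the same arrangement. The log2(FC) was -0.32 for Ccl2 (-2.03 to 1.39, adjusted p = 0.95), -0.40 for Il1b (-2.42 to 1.62, adjusted p = 0.95), -0.81 for Il6 (-2.66 to 1.05, adjusted p = 0.86) and -0.15 for Socs3 (-1.42 to 1.12, adjusted p = 0.98). Of the members 0 of 4 were called by edgeR's quasi-likelihood test, against 0.0259% of all genes. At an unadjusted p under 0.05 the test had 1370 genes and 0 members, and the exact test and DESeq2 called 43 and 32 genes and 0 members. The quasi-likelihood test called 24 genes (0.155%) without rat 82, and the stated methods called 74 (0.337%), with 0 members in either. Both D rats carry low numbers (69 to 76), which they share with 1 rat each of A and E and with none of B or C, so pimozide and this number series rest on few rats. With a term for the series the log2(FC) was 2.03 for Ccl2, 1.12 for Il1b, -0.60 for Il6 and 0.82 for Socs3, with adjusted p-values of 0.90 to 0.98.

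Rats 76, 87 and 89 bore on these comparisons, and they were singled out after their values had been seen. Rat 87, intact and stimulated, had 5.43 times the median of the other intact rats for Ccl2, 9.94 times for Il1b, 3.82 times for Il6 and 4.12 times for Socs3. It ranked first of 9 intact rats in 3 of the genes and second, after rat 84 of group A, in Il6. Rat 89, injured and stimulated, was the highest of 8 injured rats in all 4 genes, at 2.78 times the median of the others for Ccl2, 2.46 times for Il1b, 3.11 times for Il6 and 2.48 times for Socs3. Rat 76 of group D ranked second of the injured for Ccl2 (1.96 times) and Socs3 (1.99 times), but had 1.24 times for Il1b and 0.943 times for Il6.

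Over other genes that were higher in the injured cord, rat 87 was the highest intact rat but near the other 8. The genes were chosen in a fit without rat 87, a choice added after seeing the data, since a fit that counts it as intact selects against genes that are high in it. Over the 1045 genes called higher in that fit, other than the 4 members, the median log2 level relative to the median of the other intact rats was 0.15 in rat 87 and -0.15 to 0.10 in the other 8. The injured rats ran from 1.16 to 2.34, a difference that the choice of genes fixes, with rat 89 highest at 2.34 and rat 76 next at 2.22. Of the 14515 genes that averaged 1 CPM or more, 14 lay 4-fold or more above the median of the other intact rats in rat 87. This was within the 3 to 28 of the intact rats. Against the median of the other injured rats, rat 89 had 34 such genes and rat 76 had 40. Members that averaged 1 CPM or more were not left out of these counts.

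The neutrophil markers moved with some of these values. Their summed level in rat 87 was 74.4 CPM, the highest of the 9 intact rats, with 70.7 CPM in rat 84 of group A and 5.73 to 35.1 CPM in the others. Group C had 79.9, 115 and 130 CPM, group B 18.1 to 24.4 CPM and group D 25.6 and 35.3 CPM. The study flagged all 7 markers as higher in C than in B in these same rats, and most of them as lower in D than in C. The higher sum of group C was therefore fixed by the choice of markers and is no separate measure of the cells. Rat 89 was not the highest of group C, and rat 76 had the lower sum of group D. The erythroid sum of rat 87, 421 CPM, lay inside the intact range of 154 to 797 CPM. The 7 neutrophil markers were above 0 in all rats but 2, 1 of group A and 1 of group D, which had 1 marker each at 0. The part of these cells in the levels of the 4 genes was not tested.

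**Figure D3:**
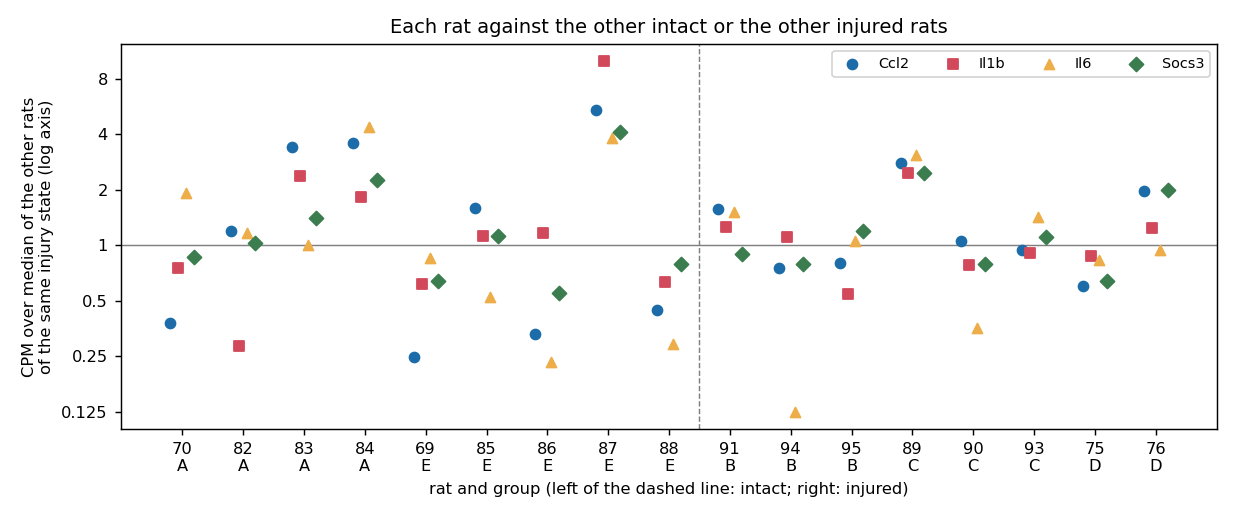
Level of the 4 genes in each rat as a multiple of the median of the other rats of the same injury state (y axis, log scale), with intact rats left and injured rats right of the dashed line. Rat 87 has 3.82 to 9.94 times the median of the other intact rats and rat 89 has 2.46 to 3.11 times that of the other injured rats over the 4 genes.

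The number of members called depended on these rats. Without rat 87, injured against intact gave a log2(FC) of 2.36 for Ccl2 (SE 0.420, adjusted p = 0.00054), 1.07 for Il1b (SE 0.372, adjusted p = 0.034), 1.62 for Il6 (SE 0.544, adjusted p = 0.029) and 2.64 for Socs3 (SE 0.291, adjusted p = 6.5e-06). All 4 members were then called, against 6.79% of all genes, and for Ccl2 and Socs3 every rat of B and C lay above every remaining intact rat, as for 9.88% of all genes. In ±SCI(st) without rat 87 the log2(FC) was 3.40 for Ccl2, 1.58 for Il1b, 3.01 for Il6 and 3.31 for Socs3 and 4 of 4 were called, against 7.38%. Over the rats one gene at a time, the exact permutation p of Il1b went to 0.019 without rat 87 and that of Il6 to 0.11. With rats 87 and 89 both left out, an alternative added after seeing the data, Ccl2 (2.03, adjusted p = 0.0016) and Socs3 (2.35, adjusted p = 5.7e-06) were called, and Il1b (0.76, adjusted p = 0.13) and Il6 (1.20, adjusted p = 0.11) were not. These are 2 of 4, against 5.54% of all genes. With rat 89 alone left out, the log2(FC) of injured against intact was 0.032 for Il1b (adjusted p = 0.97) and 0.67 for Il6 (adjusted p = 0.41). Leaving out rats 76, 87 and 89 left the same 2 members called, against 5.58%. The calls of Ccl2 and Socs3 in injured against intact held when any 1 of the 17 rats was left out, with a log2(FC) of 1.49 to 2.36 and of 1.95 to 2.64.

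**Figure D4:**
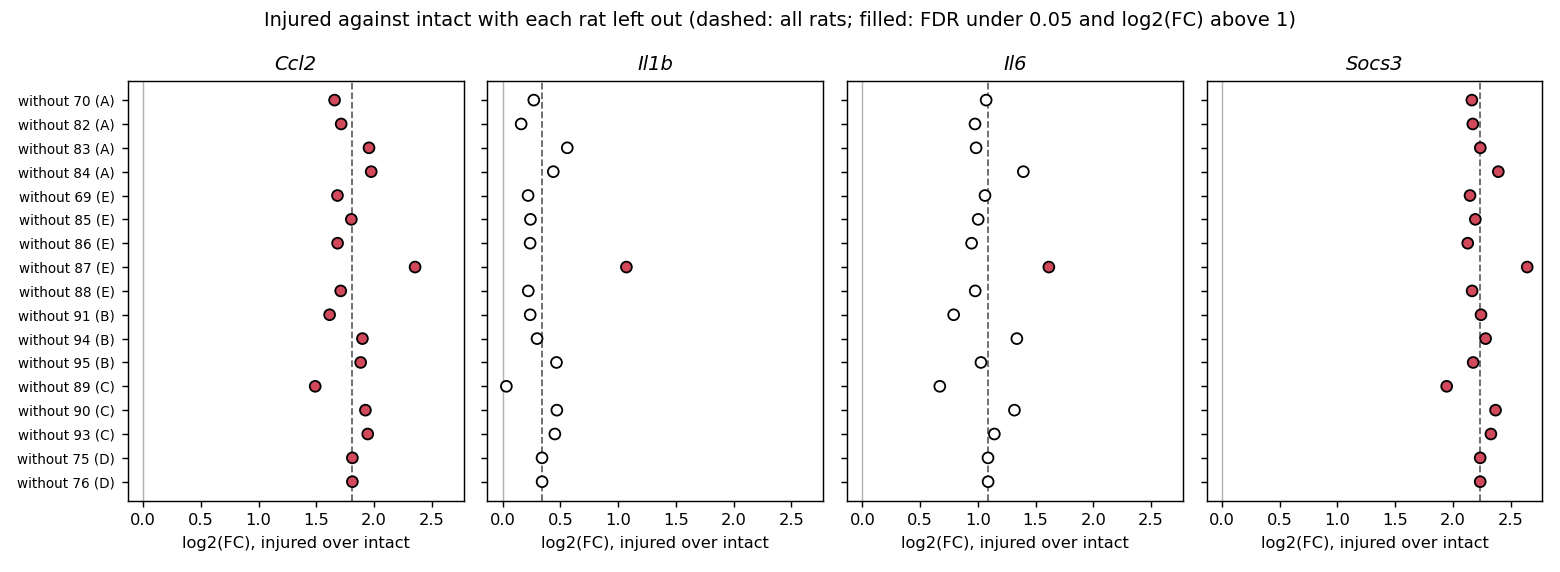
The log2(FC) of injured over intact rats (x axis) with each of the 17 rats left out in turn (y axis); the dashed line is the value with all rats and filled points passed an FDR under 0.05 and a log2(FC) above 1. Ccl2 and Socs3 are filled throughout, and Il1b (1.07) and Il6 (1.62) are filled once, without rat 87.

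Ccl2 and Socs3 followed each other from rat to rat. Because Ccl2 and Socs3 differed between injured and intact rats, correlations of log2(CPM + 0.1) were computed within each, for 6 pairs of members and 12 relations in all, with exact permutation p-values and Benjamini-Hochberg adjustment over the 12. Among the 9 intact rats Ccl2 and Socs3 had r = 0.912 (exact permutation p = 3.9e-05, adjusted 0.00047) and rho = 0.967 (exact permutation p = 0.00017, adjusted 0.0020). Without rats 69 and 87, the 2 farthest from the median of Ccl2, r was 0.901. Among the 8 injured rats r was 0.877 (exact permutation p = 0.0045, adjusted 0.026) and rho 0.714 (exact permutation p = 0.058, adjusted 0.13), but r was 0.441 without rats 76 and 89, so that in the injured cord the relation rested on these rats.

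The cytokines followed less closely. In intact rats r was 0.824 for Il1b and Socs3 (adjusted 0.028 by exact permutation), 0.819 for Il6 and Socs3 (adjusted 0.026) and 0.732 for Ccl2 and Il1b (adjusted 0.028). Their rho of 0.633, 0.750 and 0.683 had an adjusted p of 0.13 each by exact permutation, and without the 2 farthest rats r was 0.719, 0.448 and 0.560. In injured rats Ccl2 and Il1b had r = 0.791 (adjusted 0.028 by exact permutation), which was 0.392 without rats 76 and 89. The remaining 6 relations had r of 0.491 to 0.655 and an adjusted p of 0.11 or above by exact permutation. With 1 to 51 counts per rat for Il1b and Il6, counting error is part of their spread.

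**Figure D5:**
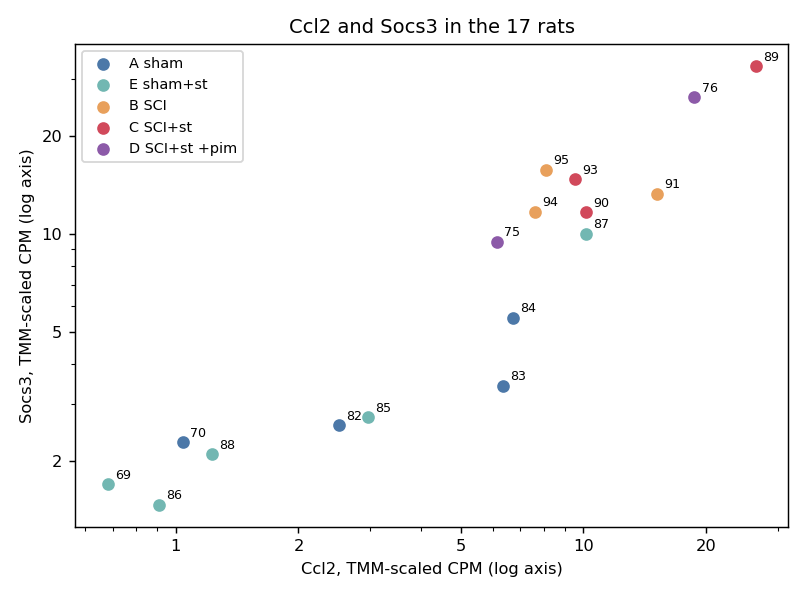
Socs3 (y axis) against Ccl2 (x axis) in the 17 rats, both in TMM-scaled CPM on log axes, colored by group and numbered by rat. The intact rats climb from rat 69 (0.680 CPM Ccl2 and 1.70 CPM Socs3) to rat 87 (10.1 and 10.04 CPM), which lies among the injured rats for Ccl2 and near their lower edge, above rat 75, for Socs3.

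Likeness to the members was also ranked over 14515 other genes averaging 1 CPM or more, by r of log2(CPM + 0.1) over the 17 rats, as a description. These values share the injury difference and the library of each rat. Of all these genes Socs3 had the highest r with Ccl2 (0.937), whereas Ccl2 ranked 26 for Socs3, for which the highest r was 0.969. Once the group means were removed, Socs3 ranked 5 for Ccl2 (r = 0.898) and Ccl2 ranked 8 for Socs3. Within groups Ccl2 ranked 23 (r = 0.817) and Socs3 36 (r = 0.804) for Il1b, and Socs3 ranked 41 (r = 0.720) for Il6. Il6 and Il1b were less alike, with r = 0.576 within groups.

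The 83 of these genes with a symbol were all from the study's list of genes flagged for stimulation or pimozide in these rats. The closest named genes are therefore limited to that list. Among the 83, the closest to Ccl2 was Fcnb, a ficolin of myeloid cells (r = 0.858, rank 87). Robo-1, Nfe2, Aqp1 and S100a8 followed, with r of 0.781 down to 0.693. Fcnb also led for Socs3 (r = 0.846, rank 944), ahead of Uba7, Robo-1, Mx1 and Masp1 at 0.742 down to 0.698. For Il1b the closest were Robo-1 (0.635), the calprotectin genes S100a8 (0.631) and S100a9 (0.593), Nfe2 (0.563) and Aqp1 (0.548). For Il6 they were LOC102555453 (0.676), Mpo, the peroxidase of neutrophils (0.523), Fcnb (0.514), Hnrnpa2b1 (0.493) and Robo-1 (0.480). Within groups the closest named genes were Fcnb (0.800), S100a9 (0.798) and Nfe2 (0.797) for Ccl2, Hnrnpa2b1 (0.746), S100a8 (0.610) and Nfe2 (0.582) for Il1b, LOC102555453 (0.610), RGD1564883 (0.511) and Hnrnpa2b1 (0.379) for Il6, and S100a8 (0.655), S100a9 (0.640) and Ngp (0.628) for Socs3. Because so few identifiers had symbols, most of the genes closest to the members have no name here.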

How the data were processed

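RNA of combined cervical, thoracic and lumbar cord of each rat was prepared with depletion of ribosomal RNA. The authors trimmed single-end reads with Trim Galore, aligned them with STAR and counted them per Ensembl gene with its GeneCounts function; the deposited counts are whole numbers without normalization. The submitters' processing notes name bcl2fastq 1.8.4, Trim Galore 0.4.1 and STAR 2.5.0a. The methods and the notes name different rat builds, so no coordinates were taken from the counts, and the strandedness column is not given in the sources used here. Reads of overlapping genes may therefore be shared.

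The 17 rats were grouped by the letter in their titles. The 4 genes and all lists were chosen with earlier results of these data known. The symbols of the 4 genes came with their identifiers, which could not be checked against an annotation of the build. Genes were filtered with filterByExpr, scaled by TMM (factors 0.966 to 1.05) and fitted with glmQLFit in edgeR 4.0.16 (R 4.3.3), with 1 coefficient per group and Benjamini-Hochberg adjustment over 15460 genes. Fits were tested on simulated data. The SE is the absolute log2(FC) over the root of F. Between rats of a group, chi-square over its degrees of freedom was 4.39 to 40.5, where counting error alone would give 1. Over genes the rats thus differed by more than counting error. The ratio pools many genes and does not show what sets the precision of Il1b and Il6.

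Alternatives were edgeR's exact test, DESeq2 1.42.0, scaling by total counts or RLE, no filter, a filter of 1 CPM in 3 rats and robust dispersions. Others were a fit limited to the groups compared, a term for the number series (69 to 76 and 82 to 95), no fold limit, a pseudocount of 1 CPM, group D added to the injured, and each rat left out. The pipeline of the methods (exact test, total counts) was run on the groups compared with no filter, since the methods state none. Permutation tests and correlations used scipy 1.17.1, pandas 2.3.3 and numpy 2.4.6 under Python 3.11.15, and figures matplotlib 3.10.9. The genes named are the 4 members, and for each the 5 named genes with the highest r over rats and the 3 within groups, in genes of at least 1 CPM. The 7 pathway lists (cytokine and chemokine ligands, receptors, JAK-STAT-SOCS, inflammasome, NF-kB, acute-phase and rapid-response genes) matched 0 identifiers and give no result, as do 8 marker lists; the neutrophil list matched 70.0%.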

Additional observations from a re-analysis of the deposited data

Results flagged for a closer look

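Rat 87 of group E stood apart from the other 4 rats of its group in all 4 genes on the CPM scale, by the gap to its nearest neighbor over the range of the group. It had 10.1 CPM of Ccl2 (gap 0.758 of the range), 4.79 CPM of Il1b (0.951), 1.03 CPM of Il6 (0.808) and 10.04 CPM of Socs3 (0.853), where the critical value for 5 rats is 0.710. Chance passes this limit in about 1 of 20 groups, and 8 cases were examined, each gene in groups A and E. On the scale of log2(CPM + 0.1), used in the other comparisons over rats and tried here after seeing the data, the gaps were 0.468 for Ccl2, 0.832 for Il1b, 0.612 for Il6 and 0.683 for Socs3, so that Il1b alone passed. The genes are not independent of each other within a rat. The lowest gap of the high rat in group A was 0.0612 for Ccl2 and the highest 0.737 for Il6, below the 0.829 that 4 rats require.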

How the results depend on the processing

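Of the alternatives, 1056 values kept direction and side of the threshold, 27 changed sign, each of a difference that was not called, 12 newly passed the threshold, 7 no longer did, and 15 counts of members called changed by over 1.5 times. With a term for the number series the log2(FC) changed sign to -0.061 for Il1b in ±SCI(st), to 2.03, 1.12 and 0.82 for Ccl2, Il1b and Socs3 in ±pim(st/SCI), and to -0.019 for Socs3 in ±st(0), and 0 members were called in ±SCI(0). With the stated pipeline 2 members were called in ±SCI(0), and 2 in ±st/SCI(0), as there with no filter or with the contrast's groups alone; the cause was not tested. With each rat left out, 0 to 1 members were called in ±SCI(0), 1 to 2 in ±st/SCI(0), 1 to 4 in ±SCI(st) and 2 to 4 in injured against intact, where 3.51% to 5.5%, 4.15% to 8.44%, 4.71% to 8.78% and 5.54% to 7.38% of all genes were called higher. In ±SCI(0) the log2(FC) then ran from -0.37 to 0.83 for Il6 and from 0.20 to 0.99 for Il1b. For Il1b in ±SCI(st) it ran from -0.50 to 1.58. In ±st(SCI) it ran from -0.065 to 0.97 for Ccl2, -0.081 to 0.80 for Il1b and -0.040 to 0.81 for Socs3. In ±pim(st/SCI), where leaving out rat 75 or 76 left 1 rat in group D, it ran from -1.33 to 0.32, -0.65 to 0.23, -1.26 to 0.032 and -1.06 to 0.43 for Ccl2, Il1b, Il6 and Socs3. In ±st(0) it ran from -0.48 to 1.42 for Il1b and -0.78 to 0.35 for Socs3, in the interaction from -1.06 to 1.02 for Il1b and -0.071 to 1.33 for Socs3, and the difference of Il1b over rats from 0.43 to 0.99. No paired analysis was possible because every rat has its own number. The exact test and the stated pipeline were not run for injured against intact or the interaction, which are not pairs of groups. Counts of 1 to 51 limit Il1b and Il6.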
